A study of Mus musculus with 12 samples.

Results

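The amino acid transporters of mouse dendritic cells (DC) were followed over 24 h of poly(I:C). Every probe set of the array whose annotation names a single gene with a symbol starting Slc1a, Slc3a, Slc6a, Slc7a, Slc36a, Slc38a or Slc43a was taken, which gave 125 of the 45037 non-control probe sets and 63 genes. Of these, 65 probe sets of 34 genes had a mean log2(signal + 16) over the 12 arrays of at least 6.4 and are described over time, and all 65 were tested. The other 60 probe sets lay below 6.4, and 29 genes had no probe set at that level. The members were chosen by the names of their genes, with earlier results of these data known.

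The cells were grown from femur and tibia marrow of C57BL/6 mice, with no genotype other than the strain given, in 10 ng/ml GM-CSF for 6 days, and per the study's methods were enriched for CD11c, a surface protein of DC, before they received 2.5 µg/ml poly(I:C), which mimics the double-stranded RNA of viruses. RNA was taken before it (0 h) and 1, 3, 6, 12 and 24 h later in 2 experiments, called experiments 1 and 2, each with the marrow of 1 mouse, so each time has 2 arrays and n = 2 throughout. The labels give an age of 3 to 4 months in one field and 8 to 10 weeks in another, and the study's methods give other doses of both agents than the labels. No array holds cells kept without poly(I:C) after 0 h, so the effects of poly(I:C) and of time in culture cannot be told apart, and since each array pools the RNA of many cells, neither can fewer cells of a type and less RNA per cell.

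Cells take up amino acids through families of membrane carriers that differ in what they carry and in what drives them. Cationic carriers of the Slc7 family bring in arginine and lysine, other Slc7 proteins are light chains that reach the membrane bound to a heavy chain of the Slc3 family, and the Slc1, Slc6, Slc36, Slc38 and Slc43 families carry acidic, neutral and related small molecules with sodium, with protons or by facilitated diffusion. In antigen-presenting cells amino acid supply feeds protein synthesis, the growth-regulating kinase mTORC1, glutathione, and the use of arginine by nitric oxide synthase and arginase.

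The arrays were alike in the signs of RNA quality, with a 3' to 5' signal ratio of 0.728 to 0.819 for Gapdh and 1.106 to 1.208 for beta-actin. Of 10 DC markers, 9 were at or above 6.4, with a summed signal of 71000 to 125000, and Flt3 was below it. All 7 macrophage markers on the array were at that level too, with a summed signal of 36300 to 59000. Neutrophil markers reached that level for 2 of 7 genes, with a summed signal of 1740 to 3740. S100a8 alone made up most of that sum on every array, at 1509 to 3401. Mast cell and basophil markers reached the level for 1 of 4 genes (255 to 571) and B cell markers for 1 of 3. T cell, NK cell and erythroid markers reached it for none of 3, 2 and 2 genes. The 24 h arrays of the experiments stood further apart than those of other times. The median gap between experiments in log2 ratio to their own 0 h array was 0.674 over the 65 transporter probe sets and 0.558 over all probe sets tested at 24 h, against 0.422 and 0.376 at 12 h.

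No transporter probe set was called at 1 or 3 h, when few probe sets of any kind were. Signals were compared with 0 h by limma on log2(signal + 16) with the experiment as a block, and a probe set is said to have risen or fallen where its Benjamini-Hochberg adjusted p over all 22519 probe sets tested was under 0.05. At 1 h, 0 of 65 probe sets passed in either direction, where 0.0533% of all probe sets tested were called higher and 0% lower. At an unadjusted p under 0.05 by limma it was also 0 of 65. At 3 h, 0 of 65 passed, with 7 higher and 1 lower at an unadjusted p under 0.05, and the background was 1.01% higher and 0.0444% lower. At 6 h, 5 probe sets of 2 genes rose and 0 fell, against a background of 3.61% higher and 1.91% lower. At an unadjusted p under 0.05 by limma, 6 of the 65 were higher and 15 lower. All background shares here are at the adjusted threshold. No share over all probe sets was taken at the unadjusted one, so the unadjusted counts cannot be set against them.

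At 12 h, 7 probe sets (10.8%) of 4 genes had risen and 14 (21.5%) of 9 genes had fallen, where 9.16% of all probe sets tested were called higher and 18.4% lower. At 24 h, 6 (9.23%) had risen and 16 (24.6%) had fallen, against 9.09% and 17.2%. The shares of transporters called were thus near those of all probe sets tested, and the results below are about which carriers moved. In all, 25 probe sets of 16 genes were called at some time, 18 of them at both 12 and 24 h, and 5 genes had a probe set that rose and 12 a probe set that fell, with Slc7a11 among both. Over the 34 genes the median, at the brightest probe set of each, was -0.22 on the log2 scale at 12 h and 0.07 at 24 h, where all 10999 genes tested, taken likewise, had -0.20 and -0.13. Over all probe sets the median was -0.22 and -0.18, and it moved to -0.08 and -0.05 with quantile normalization. Under that normalization 9 of the 65 transporter probe sets were higher and 13 of the 65 lower at 24 h. Of all probe sets tested, 10.7% were then higher and 14.4% lower. All times share the 0 h arrays. Between 12 and 24 h, 0 of the 65 probe sets rose and 3 (4.62%) fell, where 1.88% of all probe sets tested were called higher and 2.23% lower. The 3 that fell were 2 of Slc7a2 and 1 of Slc6a6. At an unadjusted p under 0.05 by limma 12 of the 65 were higher and 8 lower, a threshold at which no share over all probe sets was taken.

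**Figure D1:**
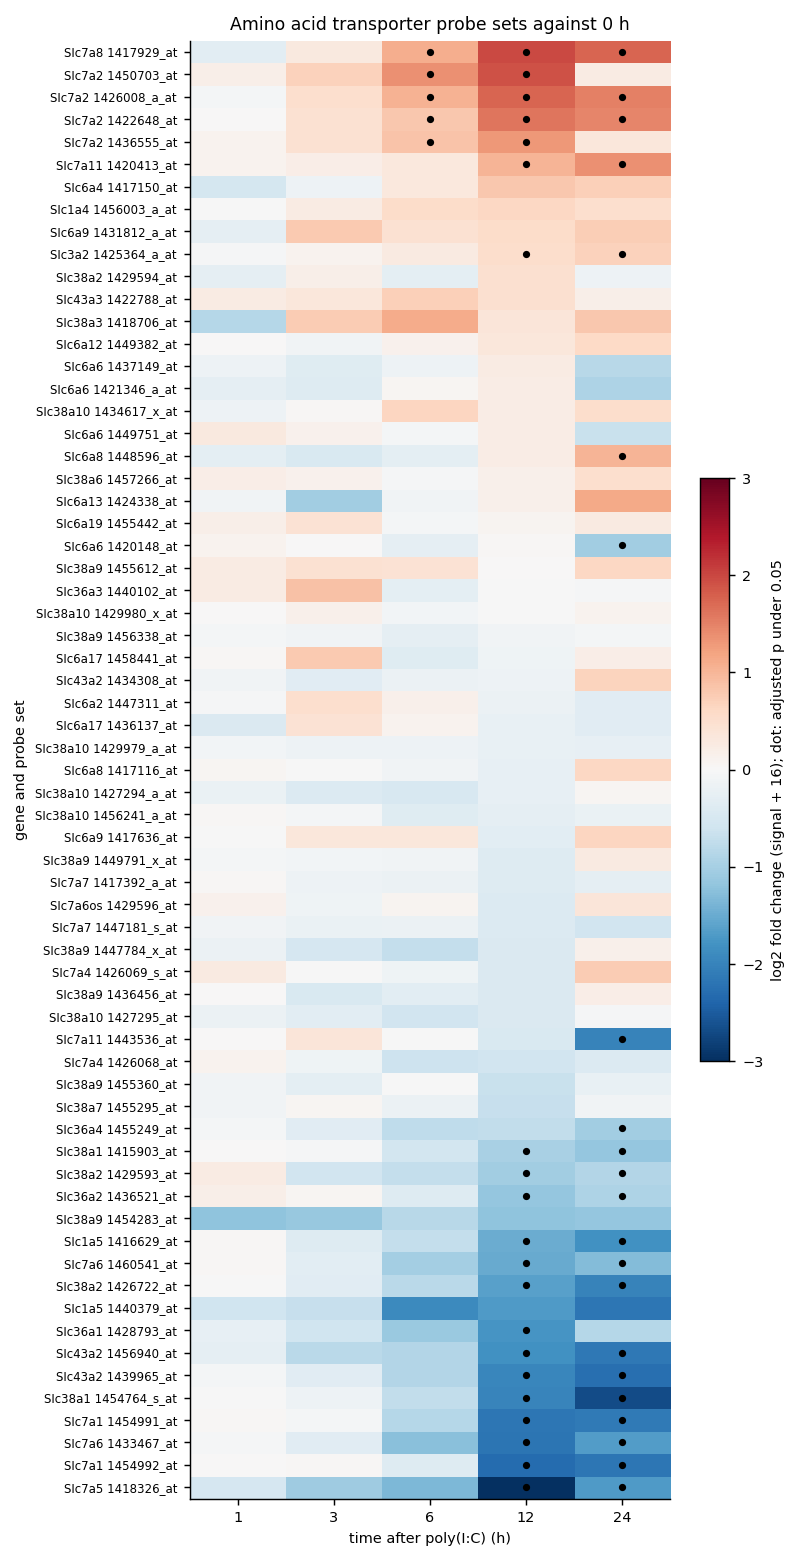
Log2 fold change against 0 h of the 65 amino acid transporter probe sets (rows, ordered by their value at 12 h) at 1, 3, 6, 12 and 24 h (columns), from the fit over both experiments. Red is higher and blue lower than at 0 h, and a black dot marks an adjusted p under 0.05. Dots appear at 6 h for 5 probe sets of Slc7a2 and Slc7a8 and otherwise at 12 and 24 h.

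Of the carriers of cationic amino acids, Slc7a2 rose and Slc7a1 fell. Slc7a2, a carrier of arginine and lysine that is inducible in myeloid cells, had 4 probe sets, and all 4 had risen by 6 h and at 12 h. The brightest, 1436555_at, read 8394, 8598, 11703, 14503, 19224 and 10558 over the 6 times in experiment 1. In experiment 2 it read 9979, 11327, 13295, 18898, 26313 and 12574. Both experiments climbed from 3 h to a peak at 12 h, where neither array overlapped those of 0 h, and were back near the start at 24 h. The log2 fold change was 0.85 ± 0.13 (SE, n = 2) at 6 h and 1.30 ± 0.13 at 12 h (limma, adjusted p = 0.000108), and at 24 h it was 0.33 ± 0.13 (adjusted p = 0.0883). Each SE in this report comes from a spread shared by all arrays of its fit, which limma draws toward that of probe sets of like signal. The fit is of all 12 arrays unless another is named. Within a fit the SE of a probe set is the same at every time. It does not measure the spread of the 2 arrays of a time. Between 12 and 24 h this probe set fell by 0.96 (adjusted p = 0.00795), and 1450703_at by 1.68 (adjusted p = 0.00863).

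The other Slc7a2 probe sets did not share one time course. Probe set 1426008_a_at went from 4059 to 14704 in experiment 1 and from 6446 to 20278 in experiment 2 between 0 and 12 h, and still read 10749 and 19696 at 24 h. Its log2 fold change was 1.05 at 6 h, 1.75 ± 0.15 at 12 h (limma, adjusted p = 3.29e-05), a 3.37-fold rise, and 1.505 ± 0.15 at 24 h (adjusted p = 0.000101). Probe set 1422648_at kept a rise of 1.47 at 24 h as well, whereas 1450703_at, which stood at 1.92 at 12 h, had 0.24 ± 0.24 at 24 h (adjusted p = 0.495). The gene's transcript forms that each probe set reads were not examined. The rise of 1426008_a_at and of 1436555_at at 6 h was not called without a replicate block (adjusted p = 0.311 and 0.169) and their values did not move, and the rise of 1436555_at was also lost without either 6 h array (lowest value 0.82). The 6 h call of 1426008_a_at was lost with the experiment 1 array of 6 h left out (0.96), that of 1450703_at with the experiment 2 array of 0 h (1.01) or 6 h (1.17) left out, and that of 1422648_at in 13 alternatives. The falls of 1436555_at and 1450703_at from 12 to 24 h were lost without either 12 h array (adjusted p from 0.0568 to 0.0695) and without a replicate block (adjusted p = 0.195 and 0.0802).

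Slc7a1, the widely expressed cationic carrier, fell. Its brightest probe set, 1454991_at, read 998, 909, 956, 660, 353 and 270 over the 6 times in experiment 1 and 943, 1075, 919, 420, 115 and 162 in experiment 2. Signals were level until 3 h, and the 12 and 24 h arrays of both experiments lay below every earlier array. It stood at -2.17 ± 0.36 on the log2 scale at 12 h (limma, adjusted p = 0.00177) and -2.13 ± 0.36 at 24 h (adjusted p = 0.00203). Experiment 2 fell further at 12 h, and the value at 12 h was -1.54 without its 12 h array and -2.79 leaving out that of experiment 1. The second probe set gave -2.31 at 12 h (-1.25 or -3.37 with the 12 h array of experiment 2 or 1 left out) and -2.16 at 24 h, and its calls were lost with the experiment 2 array of 0 h left out (-2.03 and -1.88). Slc7a4, whose product resembles the cationic carriers, was not called at any time.

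Among the light chains, Slc7a8 and 1 probe set of Slc7a11 rose. Slc7a8 encodes LAT2, an exchanger of neutral amino acids, and its single described probe set read 709, 594, 959, 1745, 3179 and 3481 in experiment 1 and 826, 635, 916, 1571, 2947 and 1946 in experiment 2. From 3 h on every array was above both 0 h arrays. Its log2 fold change was 1.10 ± 0.24 at 6 h (limma, adjusted p = 0.0248), 1.98 ± 0.24 at 12 h (adjusted p = 0.00029), a 3.94-fold rise, and 1.75 ± 0.24 at 24 h (adjusted p = 0.000645). The 6 h call was lost without either 0 h or either 6 h array (values 0.88 to 1.31) and without a replicate block (adjusted p = 0.0915).

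Slc7a11 encodes xCT, which takes up cystine in exchange for glutamate and so supplies cysteine for glutathione, and its 2 probe sets went opposite ways. The brightest, 1420413_at, read 4046, 3850, 4562, 5108, 6627 and 8899 in experiment 1 and 3348, 4050, 3860, 4156, 8552 and 10339 in experiment 2. It rose in both experiments, with a log2 fold change of 1.03 ± 0.19 at 12 h (limma, adjusted p = 0.00344) and 1.38 ± 0.19 at 24 h (adjusted p = 0.000749). Probe set 1443536_at read 5522, 6199, 6981, 5101, 4663 and 3167 in experiment 1 and 3003, 2731, 3943, 3248, 1887 and 308 in experiment 2. It was lowest at 24 h in each experiment, although the 24 h array of experiment 1 lay above the 0 h array of experiment 2. Its log2 fold change at 24 h was -2.01 ± 0.50 (adjusted p = 0.0153), and was -0.84 with the experiment 2 array of 24 h left out and -3.17 leaving out that of experiment 1. The call was lost without either 0 h array (-2.30 and -1.72) and without a replicate block (adjusted p = 0.197). The transcripts read by each were not examined, so the gene as a whole is given no direction.

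Slc3a2, the CD98 heavy chain with which the LAT and xCT light chains pair, had 1 bright probe set with signals of 10472, 10412, 12180, 14128, 15432 and 17470 in experiment 1 and 11202, 10841, 11158, 11967, 16070 and 17761 in experiment 2. The 4 arrays of 12 and 24 h lay above all others. Its log2 fold change was 0.54 ± 0.14 at 12 h (limma, adjusted p = 0.0155) and 0.70 ± 0.14 at 24 h (adjusted p = 0.00462). The 12 h rise was 0.26 and not called with quantile normalization (adjusted p = 0.178), and was lost without any 1 of the 0 and 12 h arrays (0.47 to 0.61) and without a replicate block (adjusted p = 0.0748). At 24 h the call was lost with the experiment 1 array of 0 h left out (0.63, adjusted p = 0.0513).

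The promoter sequences of Slc7a11 and Slc3a2, whose proteins form the cystine carrier, are shown because they differ in a motif of the amino acid response. Both are the 150 bases before the transcription start in RefSeq on build GRCm38.p6, minus strand, at chr3:50443614-50443763 and chr19:8713898-8714047, written in the direction of transcription. Capitals in the Slc7a11 sequence mark the matches to TGATGNAA, the core of the amino acid response element, which begin at -66 on the gene's strand and at -47 on the opposite strand, counted from -1 as the base before the start. The Slc3a2 sequence held no match.
Slc7a11: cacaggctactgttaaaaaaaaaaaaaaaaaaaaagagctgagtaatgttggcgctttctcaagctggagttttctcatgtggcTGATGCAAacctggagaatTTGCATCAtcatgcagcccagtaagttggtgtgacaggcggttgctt
Slc3a2: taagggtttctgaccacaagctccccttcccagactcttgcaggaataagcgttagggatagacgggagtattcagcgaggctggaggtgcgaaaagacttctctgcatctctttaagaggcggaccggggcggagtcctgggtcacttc
Windows of 300 bases, from 250 before to 50 after each start, were searched on both strands. TGATGNAA was in 3.97% of 32817 windows of all genes. The 23 described transporter genes with a window had 39 windows, and it was in 4 of these, of 3 genes, Slc7a11, Slc7a7 and Slc1a4. Of those 3, Slc7a7 and Slc1a4 were not called at any time. The core of the interferon-stimulated response element, GAAA and GAAA with any bases at the 2 positions between, was in 3.43% of all windows and in those of none of the 23 genes. Of the 16 called genes, 9 had a window, and Slc7a2, Slc7a5, Slc38a1 and Slc1a5 are among those without. A match is a description of letters and not of a bound site.

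**Figure D2:**
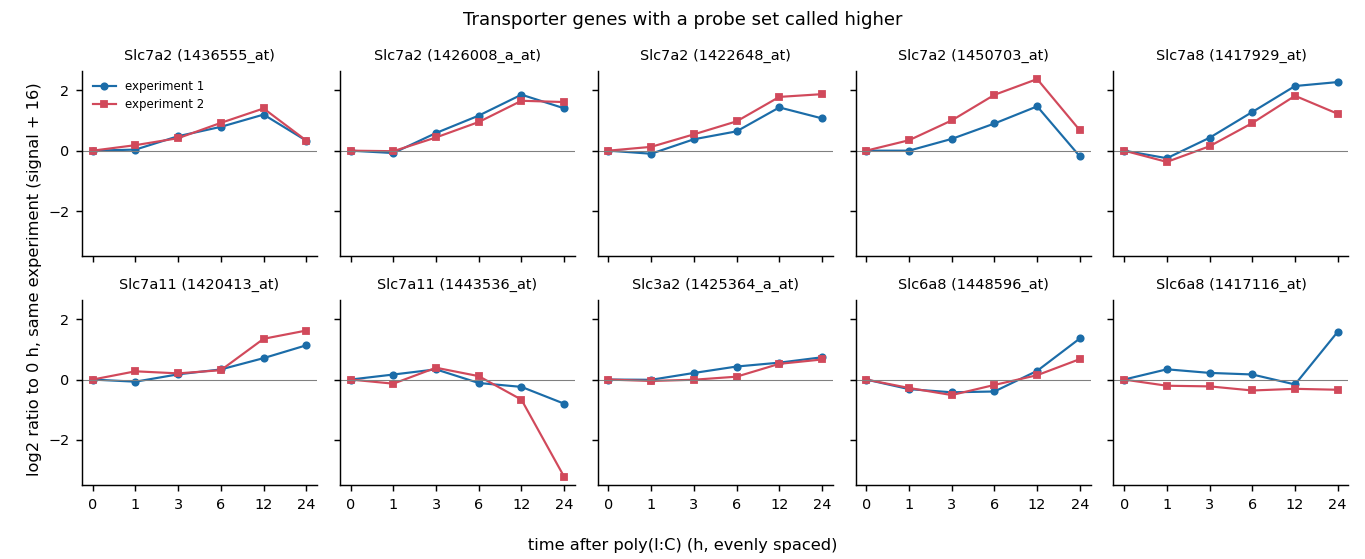
Log2 ratio of each time to 0 h within the experiment, from log2(signal + 16), for every described probe set of the 5 genes with a probe set that rose. Circles are experiment 1 and squares experiment 2, and times are evenly spaced. The Slc7a2 panels climb from 3 h to 12 h and part at 24 h, and the Slc7a11 panels run in opposite directions at 24 h.

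Of the other light chains, Slc7a5 and Slc7a6 fell and Slc7a7 was not called. Slc7a5 encodes LAT1, the leucine exchanger of growing and activated cells, and its described probe set read 257, 344, 152, 126, 16.5 and 180 in experiment 1 and 366, 126, 126, 98.9, 26.3 and 34.4 in experiment 2. Both 12 h arrays were the lowest of their experiment, and at 24 h experiment 1 was back within the range of its 0 to 6 h arrays while experiment 2 was not. The log2 fold change at 12 h was -3.12 ± 0.55 (limma, adjusted p = 0.00267), the largest fall of the 65 probe sets at that time. Because the 12 h signals are near the added 16, this value depends on it, and was -3.81 with 1 added and -2.12 with 64. At 24 h it was -1.70 ± 0.55 (adjusted p = 0.0452), but -0.83 with the experiment 2 array of 24 h left out (adjusted p = 0.288) and -2.58 leaving out that of experiment 1, and the call was lost in 16 of the alternatives. With the 0 h array of either experiment (1, then 2) left out the 12 h value was -3.71 or -2.53 and the 24 h value -2.29 or -1.11.

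Slc7a6 encodes a light chain that exchanges dibasic for neutral amino acids. Its brightest probe set read 402, 439, 284, 190, 141 and 213 in experiment 1 and 458, 445, 406, 215, 137 and 128 in experiment 2. Every array from 6 h on was below both 0 h arrays. It had fallen by 1.52 ± 0.28 on the log2 scale at 12 h (limma, adjusted p = 0.00338) and by 1.29 ± 0.28 at 24 h (adjusted p = 0.00801). The 24 h call was lost with the experiment 2 array of 0 h left out (-1.20, adjusted p = 0.0774). The second probe set gave -2.19 and -1.68, and lost its 24 h call without either 0 h array (values -1.69 and -1.68). Slc7a7, the related light chain, had log2 fold changes from -0.57 to 0.03 over 2 probe sets and a smallest adjusted p of 0.0809. Slc7a6os, the gene on the opposite strand, met the rule by its name and was not called either.

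Slc43a2 encodes LAT4, a facilitated carrier of large neutral amino acids. Its brightest probe set, 1439965_at, read 1866, 1980, 1587, 1096, 629 and 726 in experiment 1 and 1979, 1697, 1437, 974, 365 and 206 in experiment 2. From 3 h to 12 h both experiments went down, experiment 2 further, and after 12 h only experiment 2 went lower. The log2 fold change was -1.97 ± 0.37 at 12 h (limma, adjusted p = 0.00359) and -2.26 ± 0.37 at 24 h (adjusted p = 0.00181), the latter -1.505 with the experiment 2 array of 24 h left out and -3.01 leaving out that of experiment 1. A dimmer probe set also fell, by 1.82 and 2.16, and lost its call in many alternatives, among them those without any 1 of the 0 or 12 h arrays at 12 h (-1.51 to -2.13), and its 24 h value was -1.31 with the experiment 2 array of 24 h left out. Its signals went down to 1.4, and the 24 h value was -3.56 with 1 added in place of 16 and -1.27 with 64, while the 12 h call was lost with 1 added (adjusted p = 0.138). A further one, 1434308_at, was not called, with 0.68 ± 0.29 at 24 h (adjusted p = 0.118). Slc43a3, a purine carrier by current knowledge, was not called.

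Of the sodium-coupled carriers of glutamine and small neutral amino acids, Slc1a5, Slc38a1 and Slc38a2 fell and the other described members did not pass. Slc1a5 encodes ASCT2, a glutamine carrier of dividing cells, and 1416629_at read 2022, 2088, 1507, 1062, 845 and 562 in experiment 1 and 1746, 1769, 1381, 1235, 515 and 486 in experiment 2. Each experiment went down at every step after 1 h, and all arrays from 3 h on were below both 0 h arrays. The log2 fold change was -1.49 ± 0.21 at 12 h (limma, adjusted p = 0.000807), a 2.80-fold fall, and -1.81 ± 0.21 at 24 h (adjusted p = 0.000279), a 3.52-fold fall. The call held at both times in every alternative in which it was computed. A dimmer probe set of Slc1a5, with signals from 6.9 to 302, was not called (24 h value -2.17 ± 0.77, adjusted p = 0.0624).

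Slc38a1 and Slc38a2 encode the sodium-coupled carriers SNAT1 and SNAT2. Probe set 1415903_at, the brightest of Slc38a1, read 2111, 1908, 2082, 1304, 918 and 820 in experiment 1 and 1579, 1761, 1532, 1169, 942 and 792 in experiment 2, so that the 12 and 24 h arrays lay below all earlier ones. It had fallen by 0.96 ± 0.18 at 12 h (limma, adjusted p = 0.00362) and by 1.16 ± 0.18 at 24 h (adjusted p = 0.00137), and the 12 h call was lost with the experiment 1 array of 0 h left out (-0.83, adjusted p = 0.054). The other Slc38a1 probe set fell further, from 2488 to 527 in experiment 1 and from 2064 to 214 in experiment 2 between 0 and 24 h, a log2 fold change of -2.69 ± 0.29 (adjusted p = 0.00017).

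For Slc38a2, 1426722_at read 2791, 2965, 2440, 1787, 1142 and 1210 in experiment 1 and 2839, 2667, 2029, 1452, 701 and 390 in experiment 2. Every array from 3 h on was below both 0 h arrays. Its log2 fold change was -1.64 ± 0.33 at 12 h (limma, adjusted p = 0.00494), and the call was lost with the experiment 2 array of 0 h (-1.32) or 12 h (-1.52) left out. At 24 h it was -2.004 ± 0.33 (adjusted p = 0.00176), or -1.35 with the experiment 2 array of 24 h left out and -2.66 leaving out that of experiment 1. A second Slc38a2 probe set gave -1.04 and -0.89, lost its 12 h call without any 1 of the 0 and 12 h arrays (-1.03 to -1.05), lost its 24 h call in 15 alternatives, and had -0.40 at 24 h with the experiment 1 array of 24 h left out, and a dim further one was not called. Slc38a3, Slc38a6, Slc38a7, Slc38a9 and Slc38a10 were not called at any time.

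The proton-coupled carriers of the Slc36 family export amino acids from lysosomes or take up small neutral ones at the cell surface. Of its 4 described genes, Slc36a1 was called lower at 12 h, Slc36a4 at 24 h and Slc36a2 at both times. Over all probe sets tested, 18.4% were called lower at 12 h and 17.2% at 24 h. Slc36a1, the lysosomal PAT1, read 948, 912, 672, 468, 351 and 818 in experiment 1 and 1084, 790, 648, 457, 233 and 375 in experiment 2. It went down to 12 h in both experiments, where its log2 fold change was -1.77 ± 0.29 (limma, adjusted p = 0.00169), and at 24 h only experiment 1 was near its start, leaving -0.85 ± 0.29 (adjusted p = 0.0527). Slc36a4 read 3337, 2962, 2748, 1754, 1987 and 2554 in experiment 1 and 3426, 3535, 2560, 2249, 2022 and 1040 in experiment 2, and passed at 24 h (-1.04 ± 0.33, adjusted p = 0.0389). That call rests on 1 array, since the value was -0.35 with the experiment 2 array of 24 h left out (adjusted p = 0.173) and -1.74 leaving out that of experiment 1, and it was lost in 14 alternatives.

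Slc36a2 was dimmer, at 254, 310, 241, 196, 135 and 124 in experiment 1 and 170, 178, 200, 124, 51.1 and 84.3 in experiment 2. The 12 and 24 h arrays were below all others of their own experiment. Log2 fold changes were -1.16 ± 0.29 at 12 h (limma, adjusted p = 0.015) and -0.92 ± 0.29 at 24 h (adjusted p = 0.0404). The 12 h call was lost without either 0 h array (-1.21 and -1.10), with the experiment 2 array of 12 h left out (-0.83) and without a replicate block (adjusted p = 0.138), and the 24 h call in 15 alternatives (-0.83 to -1.01 with 1 array left out). Slc36a3 was not called.

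The promoters of Slc38a2 and Slc36a1 are shown as those of 2 fallen genes in which other searched motifs lay close to the start. They are given as before, for Slc38a2 on the minus strand at chr15:96699729-96699878 and for Slc36a1 on the plus strand at chr11:55204190-55204339. Capitals mark a match to TGACNNNGC, the antioxidant response element core, at -27 of Slc38a2, and a match to CACGTG, an E-box, at -31 of Slc36a1.
Slc38a2: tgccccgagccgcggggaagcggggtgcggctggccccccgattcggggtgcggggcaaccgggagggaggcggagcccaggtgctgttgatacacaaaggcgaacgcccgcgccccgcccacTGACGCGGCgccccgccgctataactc
Slc36a1: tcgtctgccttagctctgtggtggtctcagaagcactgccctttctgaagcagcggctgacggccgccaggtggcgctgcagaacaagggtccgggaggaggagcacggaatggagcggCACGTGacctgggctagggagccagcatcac
Another E-box match of Slc36a1 began at -3 and ran past the start, where it overlapped a TGACNNNGC match. TGACNNNGC was in 12.4% of all windows and in 8 of the 39 windows of the 23 described genes, these 8 being of 6 genes. CACGTG was in 7.15% of all windows and in 2 of the 39, of Slc36a1 and Slc38a7.

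**Figure D3:**
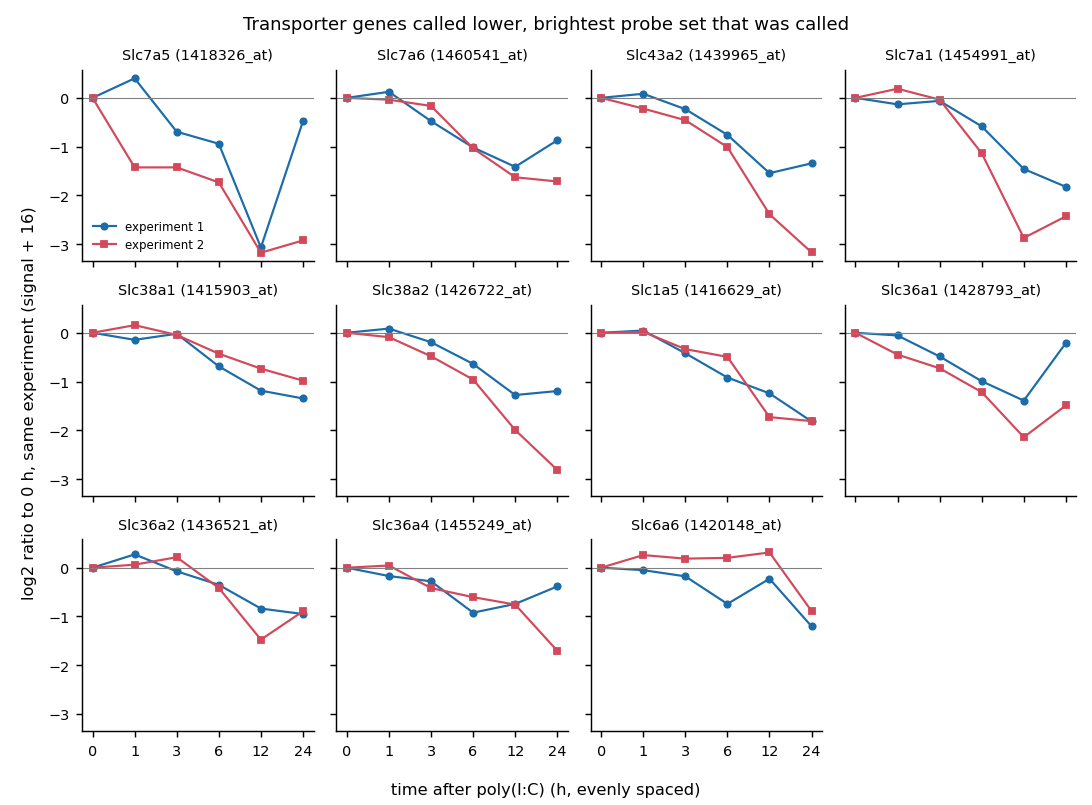
Log2 ratio of each time to 0 h within the experiment, from log2(signal + 16), for the brightest called probe set of each of the 11 genes that fell only. Circles are experiment 1 and squares experiment 2, and times are evenly spaced. Most lines go down from 6 h to 12 h in both experiments, and at 24 h the experiments part for Slc7a5, Slc43a2, Slc38a2, Slc36a1 and Slc36a4.

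In the Slc6 family, which carries amino acids, creatine, taurine and monoamines with sodium and chloride, 2 of 9 described genes passed the test, both first at 24 h. Slc6a8, the creatine carrier, read 1306, 1046, 971, 990, 1598 and 3381 in experiment 1 and 1874, 1541, 1308, 1654, 2072 and 3004 in experiment 2 at 1448596_at. Both 24 h arrays were above all others, and the log2 fold change at 24 h was 1.02 ± 0.21 (limma, adjusted p = 0.00651). The call was lost with the experiment 1 array of 0 h left out (0.95, adjusted p = 0.0607) and without a replicate block (adjusted p = 0.0719). The other Slc6a8 probe set had 0.62 ± 0.37 (adjusted p = 0.251), since its 24 h signal was 2583 in experiment 1 and 1163 in experiment 2, where 0 h read 852 and 1474.

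Slc6a6, the taurine carrier, fell at 24 h in 1 of 4 probe sets. That probe set, 1420148_at, read 441, 425, 388, 257, 375 and 182 in experiment 1 and 248, 300, 285, 288, 312 and 127 in experiment 2. The 24 h arrays were the lowest, and the log2 fold change was -1.05 ± 0.26 against 0 h (limma, adjusted p = 0.0135) and -1.09 ± 0.26 against 12 h (adjusted p = 0.0436). Against 0 h the call was lost with the experiment 1 array of 0 h left out (-0.80) and without a replicate block (adjusted p = 0.0828), and against 12 h in 15 alternatives (-1.01 to -1.17 without 1 array). The brightest Slc6a6 probe set read 4676, 3969, 3591, 3954, 5528 and 4432 in experiment 1 and 5721, 5508, 4420, 5506, 6838 and 1903 in experiment 2. Only the 24 h array of experiment 2 stood apart, and the value at 24 h was -0.83 ± 0.35 (adjusted p = 0.107).

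Slc6a4, the serotonin carrier, differed by experiment. It read 453, 372, 458, 827, 1326 and 1576 over the 6 times in experiment 1 and 151, 79.7, 118, 128, 164 and 118 in experiment 2. No array of experiment 2 reached the lowest of experiment 1, and an increase with time was seen in experiment 1 alone. The log2 fold change was 0.81 ± 0.43 at 12 h (limma, adjusted p = 0.191) and 0.72 ± 0.43 at 24 h (adjusted p = 0.247). Mast cells and basophils are known to express this carrier. The summed signal of the 4 markers of these cells on the array ran over the same times at 283, 376, 395, 489, 397 and 571 in experiment 1 and 255, 316, 335, 457, 376 and 308 in experiment 2. Gata2 alone made up most of that sum on every array, at 226, 230, 314, 445, 342 and 486 in experiment 1 and 186, 222, 254, 345, 280 and 238 in experiment 2. The sum thus mainly follows 1 gene. The study's methods name a positive selection for CD11c before poly(I:C). Cpa3, Mcpt8 and Ms4a2 were below 6.4 and Gata2 above it, and their part in the Slc6a4 signal was not tested.

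The remaining described genes did not pass at any time. These 18 genes were Slc1a4, Slc36a3, Slc38a3, Slc38a6, Slc38a7, Slc38a9, Slc38a10, Slc43a3, Slc6a2, Slc6a4, Slc6a9, Slc6a12, Slc6a13, Slc6a17, Slc6a19, Slc7a4, Slc7a6os and Slc7a7. Closest to the threshold were Slc38a6, a member of the SNAT family, with 0.49 ± 0.17 at 24 h (limma, adjusted p = 0.0603), and Slc6a12, the betaine and GABA carrier, with 0.60 ± 0.22 at 24 h (adjusted p = 0.0686). Slc6a13, another GABA carrier, had 1.14 ± 0.43 at 24 h (adjusted p = 0.0792). Slc38a9, which senses lysosomal arginine for mTORC1, had 7 probe sets with values from -1.22 to 0.63 and a smallest adjusted p of 0.122. Slc38a10 had 6 probe sets from -0.56 to 0.65, with a smallest adjusted p of 0.199.

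The genes without a probe set at 6.4, taken as not expressed here, were Slc1a1, Slc1a2, Slc1a3, Slc1a6, Slc1a7, Slc3a1, Slc36a1os, Slc38a4, Slc38a5, Slc43a1, Slc6a3, Slc6a5, Slc6a7, Slc6a11, Slc6a14, Slc6a15, Slc6a16, Slc6a18, Slc6a19os, Slc6a20a, Slc6a20b, Slc6a21, Slc7a3, Slc7a9, Slc7a10, Slc7a12, Slc7a13, Slc7a14 and Slc7a15. They include most glutamate carriers of nerve and kidney (Slc1a1, Slc1a2 and Slc1a3), the glycine and dopamine carriers Slc6a5 and Slc6a3, and the renal heavy chain Slc3a1 with its light chain Slc7a9. Their highest single signal was 180, for Slc1a2, and in the alternative with no filter Slc1a2 was called higher at 12 h. The limit cut a continuous range. Just inside it were probe sets of Slc7a4 (6.45), Slc38a10 (6.52) and Slc38a9 (6.55), and just outside were Slc7a3 (6.37), Slc1a2 (6.26) and a probe set of Slc6a2 (6.22).

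The time at which falls were first called differed between the fits with and without the 24 h arrays. In each fit all times share a single estimate of the spread, and the reason for the difference was not tested. In a fit without both 24 h arrays, chosen after the data were seen, 11 of the 65 transporter probe sets were lower at 6 h. They belonged to 8 genes, and the same 5 probe sets as before were higher. Over all probe sets tested, 9.51% were lower and 6.83% higher at 6 h in that fit. The 8 genes were Slc1a5, Slc36a1, Slc36a4, Slc38a1, Slc38a2, Slc38a10, Slc43a2 and Slc7a6, with log2 fold changes at 6 h from -0.56 to -1.26 and adjusted p from 0.00392 to 0.0409. Slc36a1, at -1.10 ± 0.19, had the smallest p of the 11. At 3 h 1 of the 65 probe sets was then higher, of Slc7a2, where 1.88% of all probe sets tested were. At 12 h 7 of the 65 were higher and 18 lower, including the 14 of the fit on all arrays. Of all probe sets tested, 12.7% were higher and 28.3% lower at 12 h in that fit.

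Genes that use or sense amino acids were compared as lists, each at the brightest probe set of a gene, beside 10999 genes tested in the same way, of which 1143 were higher and 2223 lower at 12 h and 1238 and 1843 at 24 h. In the list of arginine and polyamine enzymes, 1 of 10 genes rose and 5 fell at 12 h, the median being -0.62 on the log2 scale against -0.20 over all genes. The 1 that rose was Nos2, inducible nitric oxide synthase, by 6.90 ± 0.54 (limma, adjusted p = 1.72e-05), while spermidine synthase Srm fell by 3.41 ± 0.23, ornithine decarboxylase Odc1 by 1.18 and ornithine aminotransferase Oat by 1.04. At 24 h 1 was higher and 4 lower, with a median of -0.68.

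In the amino acid response list, the targets of the Atf4 pathway and related stress genes, 6 of 20 genes were higher and 3 lower at 12 h (median -0.18), with 7 and 3 at 24 h (median 0.04). Nupr1 rose by 2.68 ± 0.37, Ddit3 by 1.76 ± 0.22 and Atf3 by 1.23 ± 0.16 at 12 h, and these encode stress regulators, while Shmt2, a mitochondrial serine enzyme, fell by 1.79 ± 0.23. In the list of mTORC1 amino acid sensing, 2 of 29 were higher and 4 lower at 12 h, with 1 and 6 at 24 h. Sesn3, of the sestrin family, rose by 2.16 ± 0.33, whereas its relative Sesn1 fell by 1.49 ± 0.32. Mios fell by 1.14 and Lamtor4 by 0.89, both subunits of complexes that act at the lysosome.

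In the list of cysteine and glutathione, 1 of 14 genes was higher and 4 were lower at 12 h, with 2 and 2 at 24 h. The median of the list was 0.06 at 12 h and -0.07 at 24 h, against -0.20 and -0.13 over all genes. The 4 that fell at 12 h make or regenerate glutathione, namely Gclc (-1.39 ± 0.38), Gsr (-1.28 ± 0.24), Gclm (-1.21 ± 0.17) and Gss (-0.58 ± 0.16). Of 11 enzymes of glutamine, glutamate and branched-chain amino acids, 1 was higher and 2 were lower at 12 h, with 2 and 3 at 24 h. Glutamine synthetase Glul fell by 1.19 ± 0.32 at 12 h and Dbt by 1.00 ± 0.28, Bckdhb rose by 1.27 ± 0.34, and Bcat2 had -0.62 and did not pass. Of 13 other carriers of amino acids and peptides, 3 were higher and 4 lower at 12 h, with 4 and 2 at 24 h, with the mitochondrial glutamate carrier Slc25a22 up by 1.73 ± 0.27, its relative Slc25a12 by 1.12 ± 0.18 and the lysosomal peptide carrier Slc15a3 by 1.09 ± 0.16, and Slc25a13 at -1.39 ± 0.24. The adjusted p of each named gene other than Bcat2 was under 0.05 by limma.

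**Figure D4:**
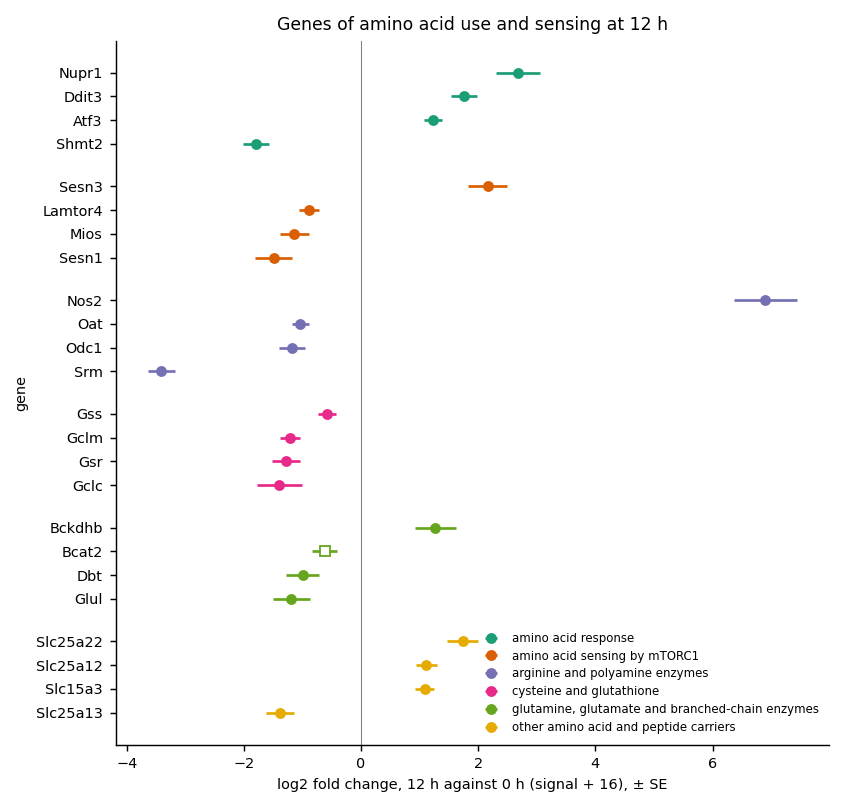
Log2 fold change at 12 h against 0 h, with its standard error, for the 4 genes with the smallest p in each list of genes that use or sense amino acids. Filled circles passed an adjusted p of 0.05 and the open square, Bcat2, did not. Nos2 lies furthest to the right at 6.90 and Srm furthest to the left at -3.41.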

How the data were processed

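RNA of 12 samples was hybridized to Affymetrix Mouse 430 2.0 arrays, 1 array for each of 6 times in each of 2 experiments. The authors made the deposited intensity values with MAS5.0, on a linear scale, and each array has a mean of 500 without its top and bottom 2% of signals. Array medians were 70.9 to 91.4, and precision is limited by having 2 arrays a time. Detection calls and image files were not used here. Genes came from the platform annotation, which gives 34945 probe sets 1 symbol, 932 several and 9160 none. All 63 member genes had a current RefSeq symbol.

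limma 3.58.1 (R 4.3.3) was run on log2(signal + 16), with time and experiment as terms and an intensity trend (5 residual and 5.22 prior degrees of freedom). Tests covered the 22519 probe sets whose mean reached the median, with Benjamini-Hochberg adjustment over them and a threshold of 0.05. Folds are on the log2(signal + 16) scale and understate changes of low signals. The script was tested on simulated data. The experiment is a block because the study's methods describe separate cultures, each from the cells of 1 mouse and hybridized apart. As a check, each array's deviation from its time's mean was correlated with that of the other times of its experiment, which gave r = 0.254 to 0.656 and a median of 0.572 in 15 pairs (across probe sets, not independent of each other).

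The members and lists were chosen with earlier results of these data known. Values per array were given for each member gene called against 0 h, at its brightest probe set, and other probe sets were added after their values were seen. Up to 4 genes of a list with the smallest p at 12 h were named. Tables and figures used Python 3.11.15 with numpy 2.4.6, pandas 2.3.3 and matplotlib 3.10.9. Alternatives were pseudocounts of 1 and 64, no filter and stricter or rule-based filters, median centring, quantile normalization, no replicate block, no intensity trend, only the 4 arrays compared, each array left out and, chosen after seeing the data, both 24 h arrays left out.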

Additional observations from a re-analysis of the deposited data

How the results depend on the processing

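None of the 51 called transporter values reversed under any alternative, and 23 kept their call in every one computed. With no replicate block 20 of the 51 calls were lost, and the counts were 1 higher at 6 h, 8 lower at 24 h and 0 lower at 24 h against 12 h, in place of 5, 16 and 3. Only the 4 arrays compared gave 6 higher and 7 lower at 3 h, 13 lower at 6 h and 10 lower at 24 h, with a spread estimated from 4 arrays. A filter at the 75th percentile, which tests fewer probe sets, gave 9 lower at 12 h, 1 higher at 24 h against 12 h and 1 lower at 6 h. No intensity trend gave 3 higher at 6 h, a pseudocount of 64 gave 2 lower at 6 h and quantile normalization 1 lower at 6 h. Without both 24 h arrays, 1 was higher at 3 h and 11 lower at 6 h. Counts over all 22519 probe sets tested shifted as well. With no replicate block, 347 of these were higher at 6 h and 1635 lower at 24 h, in place of 813 and 3877. With only the 4 arrays compared, 1010 were higher and 951 lower at 3 h, in place of 228 and 10. At 6 h, 2098 were then lower in place of 430, and at 24 h 1520 in place of 3877. Leaving out 1 array at a time gave 0 to 0 higher and 0 to 0 lower at 1 h, 0 to 1 higher and 0 to 0 lower at 3 h, 1 to 5 higher and 0 to 12 lower at 6 h, 6 to 7 higher and 9 to 18 lower at 12 h, 4 to 9 higher and 7 to 20 lower at 24 h, and 0 to 8 higher and 0 to 12 lower at 24 h against 12 h. The 1 higher at 6 h came without either 6 h array and the 12 and 11 lower at 6 h with the experiment 1 array of 24 h left out or 2. At 24 h, 7 were lower with the experiment 2 array of 0 h left out, 9 leaving out that of experiment 1 and 20 with the experiment 1 array of 24 h left out. At 24 h against 12 h, 12 were lower with the experiment 1 array of 24 h left out, 8 were higher leaving out that of experiment 2, and 0 were lower without either 12 h array. At 12 h, 9 were lower with the experiment 2 array of 0 h left out. Counts over all probe sets tested also moved when 1 array was left out, and causes of these shifts were not tested. Values of low signals, such as Slc7a5 and the dimmer Slc43a2 probe set, depend on the pseudocount, and with 2 arrays a time a call that is missing does not show that a gene did not change.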
